A study of Mus musculus with 8 samples.

Results

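The genes described here are 10 genes of polyamine synthesis, polyamine catabolism and methionine salvage, chosen by symbol from a table of 35072 genes: Odc1, Amd1, Srm, Sms, Oaz1, Sat1, Mtap, Mri1, Apip and Adi1. All 10 were found and all 10 passed the filter on low counts, which left 13299 genes for testing. The libraries came from wildtype mouse CD8 T cells of spleen and lymph nodes. Naive cells were first activated for 18 h through CD3 and CD28 in the presence of interleukin-12. They were then given PBS (control, 4 libraries) or 2 mM formate (4 libraries) for a further 24 h. Formate is a one-carbon metabolite that enters the folate cycle. Whether the libraries of a group are separate animals or separate cultures is not stated in the labels; each p-value therefore covers the spread among these 8 samples only, and part of that may be technical.

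Polyamines are small, positively charged molecules that bind nucleic acids and that proliferating cells, activated T cells among them, need in quantity. Ornithine decarboxylase makes putrescine from ornithine, and spermidine and spermine synthases then add aminopropyl groups taken from decarboxylated S-adenosylmethionine. Each of those additions releases methylthioadenosine, which the methionine salvage pathway turns back into methionine, so that polyamine synthesis and the methionine and one-carbon cycles share their substrates.

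Library totals ran from 29361824 to 41392932 estimated counts, and levels are given as CPM (counts scaled to a common library total) after TMM scaling. Of 8 markers of CD8 T cells 7 were found. They summed to 2389 to 2613 CPM in the control libraries and 2337 to 2566 in the formate libraries. With formate that sum was higher in 1 of 4 pairs. Of 5 markers of natural killer and innate lymphoid cells all had a mean below 1 CPM, and of 8 myeloid markers 7 did, the exception being Cst3 at 37.9. The 8 B cell markers summed to 170 to 181 CPM in the control and 160 to 175 CPM in the formate libraries, lower with formate in 4 of 4 pairs, with Ighm, at a mean of 150, making up most of that sum. Erythroid and platelet markers were higher with formate in 4 of 4 pairs, at 0.784 to 1.11 CPM in control and 1.02 to 1.96 CPM in formate libraries. Markers of CD4 T cells summed to 12.8 to 20.5 CPM and 12.8 to 22.0 CPM, and stromal markers to 17.5 to 24.3 CPM and 17.6 to 23.2 CPM, each higher in 2 of 4 pairs. Of 6 stromal markers 5 had a mean below 1 CPM, and Pecam1, at a mean of 19.1, made up most of the stromal sum. The part of these markers in the results was not tested. The sample titles are numbered in pairs of a control and a formate library: 1 with 2, 7 with 8, 10 with 11, and 13 with 14. The first principal component, with 51.2% of the variance, set codes 1 to 8 apart from codes 10 to 14. Because the paired libraries deviated together, values from a fit with these pairs as a block are printed where they bear on a result. Controls 1, 2, 3 and 4 are codes 10, 13, 1 and 7, and formate libraries 1, 2, 3 and 4 are their neighbours 11, 14, 2 and 8.

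No transcript of the 10 passed the test in the planned comparison of formate with control, which has no pairing term. With the pairs as a block, 1 of the 10 did: Sat1, which encodes the acetyltransferase that opens polyamine catabolism, rose 1.19-fold. The comparison without a block called 0.00752% of all tested genes higher and none lower (edgeR quasi-likelihood test, with the threshold at a p under 0.05 after Benjamini-Hochberg adjustment over all tested genes). At an unadjusted p under 0.05 it held 634 genes, 4.77% of those tested, and none of the 10. DESeq2 called 21 genes (0.158%), again none of the 10. The blocked edgeR fit called 5.35% of tested genes higher and 7.52% lower, or 12.9% in either direction, so that 1 in 10 lies near the background share. The split of those calls moved with the scaling, from 711 higher and 1000 lower to 832 and 736 with upper quartile scaling and 1048 and 539 with library size only. It was 492 and 1082 in DESeq2 with the block and 437 and 964 with the trend on GC content removed. The libraries are bulk RNA, in which fewer cells of a type and less RNA per cell cannot be told apart. The median log2 change of the 10 in that fit was 0.04, against -0.003 over all tested genes. In 5 of the 10 the formate library lay on the same side of its control in 4 of 4 pairs, 3 higher and 2 lower, against 35.5% of all tested genes (16% higher, 19.5% lower). At an unadjusted p under 0.05 the blocked fit held Srm, Sms and Sat1, and 28.3% of all tested genes. In no member did the ranges of the groups separate, which they did for 2.44% of tested genes upward and 1.85% downward.

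**Figure D1:**
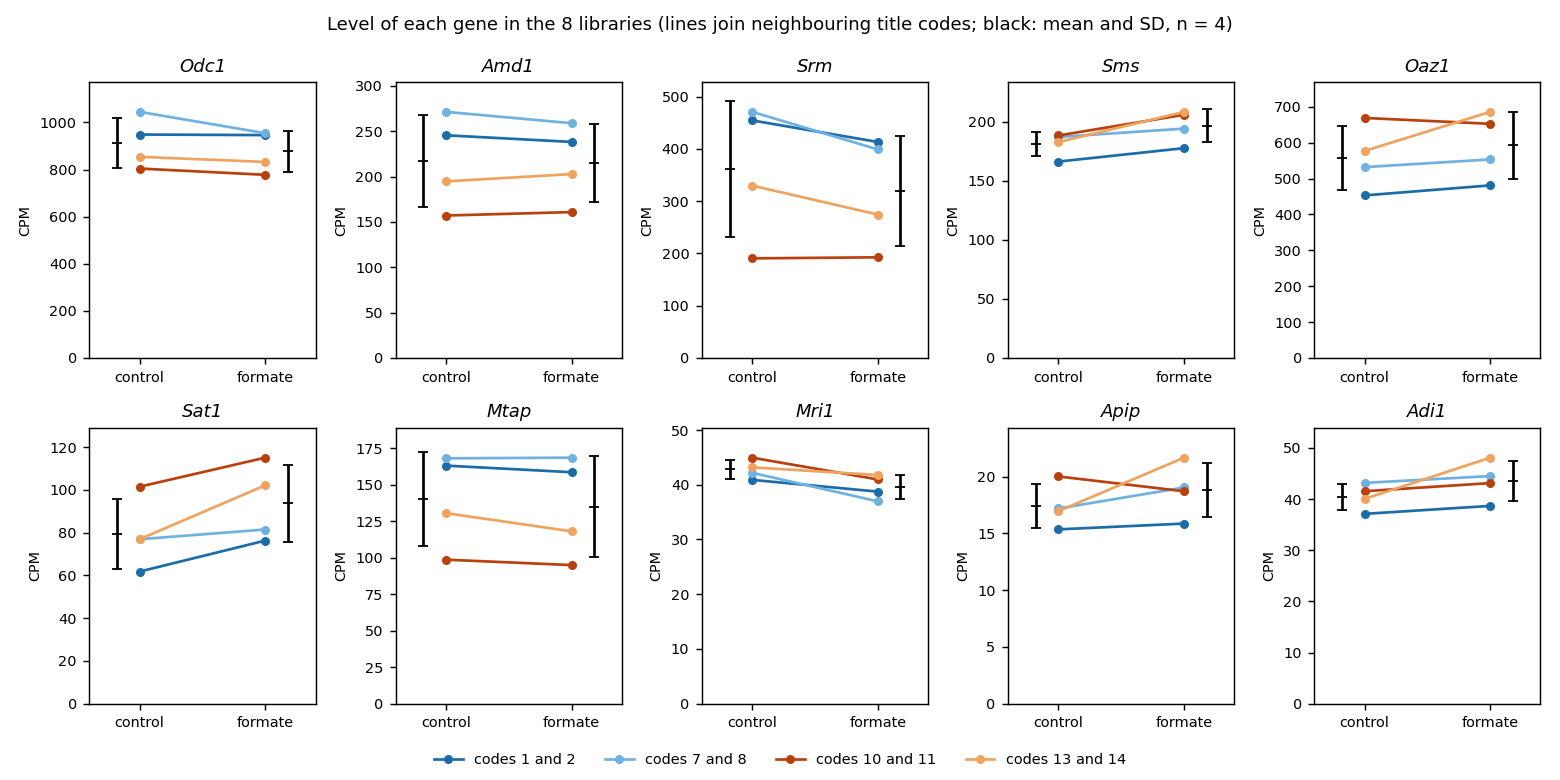
Level of each of the 10 genes in CPM (vertical axes, starting at 0) in control and formate libraries; each coloured line joins a control and a formate library with neighbouring title codes, and black bars give the mean and SD of 4 libraries. The group ranges overlap for every gene; the lines of Sat1, Sms and Adi1 rise in 4 of 4 pairs and those of Odc1 and Mri1 fall in 4 of 4.

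Among the synthesis genes, those for the early steps lay level or lower with formate, and Sms lay higher, none past the test. Odc1, encoding the ornithine decarboxylase that commits ornithine to the pathway, lies at chr12:17544794-17551505 on the plus strand (GRCm38). It read 804, 854, 949 and 1045 CPM in controls 1 to 4, and 778, 832, 946 and 954 CPM in formate libraries 1 to 4. The formate library was the lower one in every pair, but the difference between pairs was larger than that within them. The means were 913 ± 106 CPM (SD, n = 4) in control and 878 ± 86.9 in formate, and the blocked log2 change was -0.06 (SE 0.05, 95% interval -0.15 to 0.04, edgeR adjusted p = 0.467).

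Amd1 encodes S-adenosylmethionine decarboxylase, the source of the aminopropyl donor, and lies at chr10:40287458-40302186 on the minus strand. Its mRNA is known for a very short reading frame ahead of the coding sequence, through which polyamines lower its translation. That frame is shown because it is a level of control that transcript counts do not read. It spans chr10:40302155-40302175 in Amd1 and chr10:35711860-35711880 in the paralog Amd2, both on the minus strand of GRCm38, and has 6 codons before its stop. In the lines that follow, capitals mark its start and stop codons.
Amd1: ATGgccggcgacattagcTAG
Amd2: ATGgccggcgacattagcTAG
The letters are the same in both genes. Amd1 read 157, 195, 245 and 271 CPM in controls 1 to 4 and 161, 203, 238 and 259 CPM in formate libraries 1 to 4. Within a pair the values nearly coincided, while codes 7 and 8 read far above codes 10 and 11. The means were 217 ± 51.2 CPM and 215 ± 43.0 CPM, with a blocked log2 change of -0.005 (SE 0.04, 95% interval -0.10 to 0.09, edgeR adjusted p = 0.957), whose sign turned under several settings. That interval is narrow beside the spread of either group, but it holds for that setting only. With the GC trend removed the blocked log2 change of Amd1 was -0.11 (SE 0.04, edgeR adjusted p = 0.122), below the interval. The transcript of Amd2 shares 90.9% of its 31-base words with Amd1, so the estimate divides reads between them. Amd2 held counts equal to 2.94% of those of Amd1 and had a blocked log2 change of 0.22 (SE 0.11, edgeR adjusted p = 0.186).

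Srm and Sms encode spermidine synthase and spermine synthase, the consecutive aminopropyltransferases, and they lay on opposite sides of 0. Srm (chr4:148591503-148594993, plus strand) read 190, 330, 454 and 471 CPM in controls 1 to 4 and 192, 274, 413 and 399 CPM in formate libraries 1 to 4. It was lower with formate in 3 of 4 pairs and level in codes 10 and 11, the pair with the lowest Srm. Its means were 361 ± 130 CPM and 320 ± 105 CPM, and its blocked log2 change was -0.16 (SE 0.05, 95% interval -0.27 to -0.05), just outside the threshold (edgeR adjusted p = 0.0517). Without codes 10 and 11 it passed (-0.21, edgeR adjusted p = 0.0161, where 10.3% of tested genes were called in either direction). It also passed in DESeq2 with the block (-0.17, adjusted p = 0.0225, 11.8% called). In the other 7 blocked edgeR settings it did not pass: the log2 change lay between -0.16 and -0.12 and the adjusted p between 0.0517 and 0.219, with 0.129 when the GC trend was removed.

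Sms (chrX:157443855-157492287, minus strand) read 188, 183, 166 and 187 CPM in controls 1 to 4 and 206, 208, 178 and 194 CPM in formate libraries 1 to 4. Every formate library exceeded its neighbour, and the group ranges overlapped between 178 and 188 CPM. The means were 181 ± 10.2 CPM and 197 ± 14.0 CPM, and the blocked log2 change was 0.12 (SE 0.04, 95% interval 0.02 to 0.21, edgeR adjusted p = 0.0894). It passed in 1 blocked setting, library size only (0.15, edgeR adjusted p = 0.0367), and stood at 0.07 with the GC trend removed (adjusted p = 0.352). The processed pseudogene Sms-ps, at chrX:62775585-62776685, bears on how Sms is read. Every 31-base word of its annotated transcript also occurs in Sms, and 28.4% of those of Sms occur in it. Its row in the table held counts equal to 39.0% of those of Sms, so reads of the shared stretch were divided between the rows. Between 26.9% and 29.6% of their joint count lay on Sms-ps in each library. Sms-ps had a blocked log2 change of 0.13 (SE 0.06, edgeR adjusted p = 0.136), close to that of Sms, and with the copies and pseudogenes summed Sms stood at 0.12 (adjusted p = 0.0890). The level of Sms from its own row is thus a low estimate if those reads came from Sms, while its log2 change with formate was 0.12 either way.

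**Figure D2:**
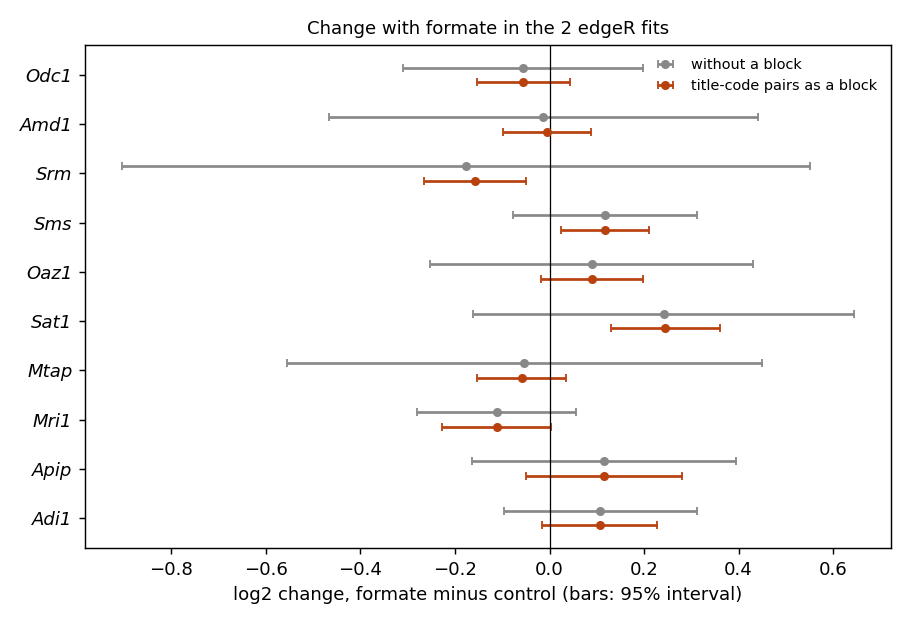
The log2 change with formate (horizontal axis, formate minus control) of each of the 10 genes with its 95% interval, from the edgeR fit without a block (grey) and with the title-code pairs as a block (red). The estimates hardly move between the fits while the intervals narrow, most for Srm, Mtap and Amd1; with the block the intervals of Sat1, Sms and Srm lie off 0.

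Oaz1 and Sat1, the members for inhibition and catabolism, had higher means with formate, Sat1 past the test in the blocked fit. Other genes of these roles, described below, did not all move alike. In that fit the catabolic gene Smox fell (log2 change -0.23, edgeR adjusted p = 0.0439), a call lost in several settings. Azin1, which counters the inhibition, lay higher (0.13, edgeR adjusted p = 0.0604). Oaz1 (chr10:80826656-80829290, plus strand) encodes antizyme, which binds ornithine decarboxylase, delivers it to the proteasome and slows polyamine uptake. Antizyme is made only where ribosomes shift reading frame at a stop codon within the message, an event that polyamines favour. The site is shown beside that of the paralog Oaz2 because the shift there bears on how much antizyme is made from the mRNA, which transcript counts do not read. The stretches lie at chr10:80828280-80828309 and chr9:65686257-65686286, both on the plus strand of GRCm38, and capitals mark the last codon before the stop together with the stop codon.
Oaz1: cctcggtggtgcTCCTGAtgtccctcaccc
Oaz2: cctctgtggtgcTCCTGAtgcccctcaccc
Oaz1 read 669, 577, 453 and 532 CPM in controls 1 to 4 and 653, 686, 481 and 554 CPM in formate libraries 1 to 4. It was higher with formate in 3 of 4 pairs, with the largest step in codes 13 and 14. The means were 558 ± 90.1 CPM and 593 ± 93.7 CPM, with a blocked log2 change of 0.09 (SE 0.05, 95% interval -0.02 to 0.20, edgeR adjusted p = 0.263). Counts of the mRNA do not show which frame was read.

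Sat1 (chrX:155213132-155216449, minus strand) encodes spermidine/spermine acetyltransferase, which marks spermidine and spermine for oxidation or export and is itself induced by polyamines. It read 102, 76.9, 61.8 and 76.9 CPM in controls 1 to 4. In formate libraries 1 to 4 it read 115, 102, 76.3 and 81.5 CPM. Each formate library exceeded its neighbour, with log2 differences of 0.30 in codes 1 and 2, 0.08 in codes 7 and 8, 0.18 in codes 10 and 11 and 0.41 in codes 13 and 14. The groups still overlapped, since control 1 lay at the level of formate library 2. The means were 79.3 ± 16.4 CPM and 93.8 ± 18.1 CPM. The log2 change was 0.24 without a block (SE 0.18, 95% interval -0.16 to 0.64, edgeR adjusted p = 0.998) and 0.25 with it (SE 0.05, 95% interval 0.13 to 0.36, adjusted p = 0.00981). The blocked call was lost without codes 1 and 2 (0.23, edgeR adjusted p = 0.0894) and without codes 13 and 14 (0.19, adjusted p = 0.0718). The share of counts on 13 mitochondrial genes was also higher with formate in 4 of 4 pairs, at 0.414% to 0.566% in control and 0.560% to 0.906% in formate libraries, and its part in the result was not tested. GENCODE M21 lists 7 transcripts of Sat1, of which 2 are coding, 1 is a target of nonsense-mediated decay and 4 retain an intron. The counts are summed over transcripts, so a shift among them cannot be read from this table.

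The salvage genes did not pass the test in either direction. Mtap (chr4:89137122-89181081, plus strand) encodes the phosphorylase that splits methylthioadenosine, the first step of salvage. It read 98.6, 130, 163 and 168 CPM in controls 1 to 4 and 94.9, 118, 159 and 168 CPM in formate libraries 1 to 4. The pairs differed far more than the groups: codes 7 and 8 were at the same level, and the other formate libraries lay below their neighbours. The means were 140 ± 32.2 CPM and 135 ± 34.5 CPM, with a blocked log2 change of -0.06 (SE 0.04, 95% interval -0.15 to 0.04, edgeR adjusted p = 0.411). The antisense pseudogene Gm12607 overlaps Mtap and has a row of its own, and since the strand setting of the counting is not given, reads of the overlap cannot be assigned with certainty.

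Mri1 (chr8:84249906-84257326, minus strand) encodes the isomerase of the second step. It read 44.9, 43.2, 40.9 and 42.2 CPM in controls 1 to 4 and 41.0, 41.8, 38.7 and 37.0 CPM in formate libraries 1 to 4. Each formate library lay below its neighbour, and the ranges overlapped between 40.9 and 41.8 CPM. The means were 42.8 ± 1.71 CPM and 39.6 ± 2.18 CPM, the tightest of the 10 genes relative to their level, and the blocked log2 change was -0.11 (SE 0.05, 95% interval -0.23 to 0.00, edgeR adjusted p = 0.192).

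Apip and Adi1 encode the dehydratase and the dioxygenase of the later steps, and both lay higher with formate, short of the test. Apip (chr2:103073675-103092644, plus strand) read 20.0, 17.0, 15.4 and 17.2 CPM in controls 1 to 4 and 18.7, 21.7, 15.9 and 19.0 CPM in formate libraries 1 to 4. Its blocked log2 change was 0.11 (SE 0.08, 95% interval -0.05 to 0.28, edgeR adjusted p = 0.354), with 3 of 4 pairs higher. Adi1 (chr12:28675231-28682175, plus strand) read 41.5, 40.0, 37.1 and 43.2 CPM in controls 1 to 4 and 43.1, 48.1, 38.7 and 44.5 CPM in formate libraries 1 to 4. It was higher in 4 of 4 pairs, by the most in codes 13 and 14, with a blocked log2 change of 0.11 (SE 0.06, 95% interval -0.02 to 0.23, edgeR adjusted p = 0.237). The 4 salvage genes thus split evenly in sign, with a median blocked log2 change of 0.02.

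Levels can be compared between genes only per length, here as the mean CPM over 8 libraries for each kilobase of transcript. On that scale Oaz1 (551) and Odc1 (405) stood highest, followed by Srm (254). Sat1 (84.1), Amd1 (67.4), Sms (50.8) and Mtap (49.2) formed a middle range, and Adi1 (25.4), Apip (19.7) and Mri1 (14.6) stood lowest. The value of Sms comes from its own row and is low if the reads on Sms-ps came from Sms. Its place within the middle range is therefore not fixed. The message for the decarboxylase and that for its inhibitor were therefore the most abundant of the 10.

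Except for Mri1, most of the variation of each of these genes lay between the pairs of libraries and not between treatments. The pairs hold more degrees of freedom than the treatment, so their share is larger even where pairs do not differ. The shares were not adjusted for this. Of the sum of squares of log2 CPM over the 8 libraries, the pairs took 99.1% for Amd1, 98.5% for Mtap, 96.2% for Srm and 93.1% for Odc1. The share was lowest for Mri1, at 42.6%, where the treatment took 46.4%. The median over the 10 was 82.3%, beside 74.9% over all tested genes. Codes 1 to 8 exceeded codes 10 to 14 by 1.76-fold for Srm, 1.49-fold for Mtap, 1.42-fold for Amd1 and 1.19-fold for Odc1, whereas Sat1 and Oaz1 stood at 0.749 and 0.781 of the level in codes 10 to 14. For Odc1, Amd1, Srm and Mtap all 4 libraries of codes 1 to 8 read above all 4 of codes 10 to 14, whichever treatment they had. For Oaz1 all 4 read below, and for Sat1 the sets overlapped, with formate library 4 above control 2. The change with formate was also compared between these sets of libraries by an interaction term: no member passed, with or without the block, and the blocked fit called 0.0677% of tested genes.

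**Figure D3:**
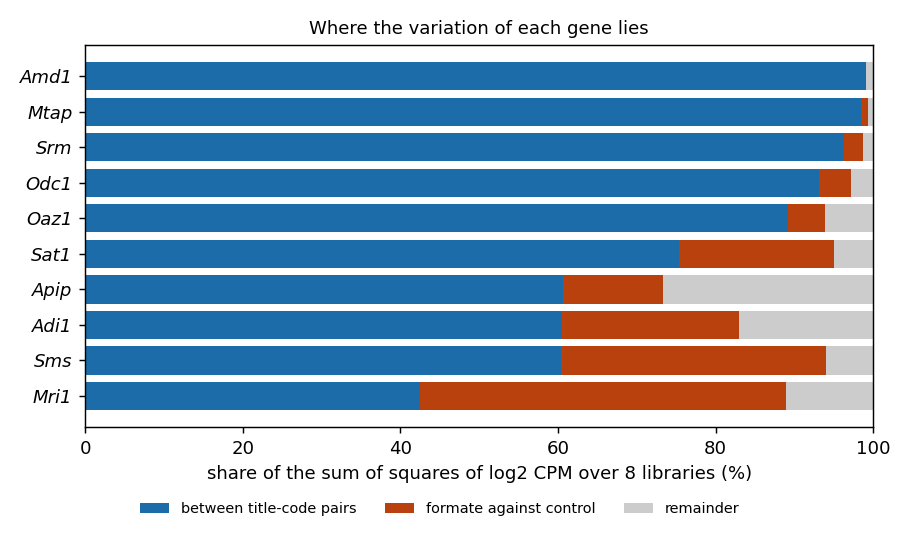
Share of the sum of squares of log2 CPM over 8 libraries (horizontal axis, %) that lay between title-code pairs (blue), between formate and control (red) or in the remainder (grey), for each of the 10 genes. The blue part runs from 42.6% for Mri1 to 99.1% for Amd1. The pairs hold more degrees of freedom than the treatment, which by itself enlarges the blue part.

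The genes whose levels ran most alike with Odc1 over the 8 libraries were Mtpap (Pearson r = 0.985), Lfng (0.983) and Taf12 (0.983), out of 9154 genes whose mean reached 5 CPM. For Mtap they were Psmd11 (0.998), Etf1 (0.997) and Cse1l (0.996). These are descriptions: the 8 libraries form 4 pairs and are not independent points.

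Ratios of counts within a library do not depend on scaling, and 2 were taken by role. Odc1 to Oaz1, the decarboxylase against its inhibitor, was 1.20, 1.48, 2.09 and 1.96 in controls 1 to 4 and 1.19, 1.21, 1.97 and 1.72 in formate libraries 1 to 4. With formate it fell by 0.911% in codes 10 and 11, the least of the 4 pairs, and fell by 18.0% in codes 13 and 14, the most. The means of 1.68 ± 0.417 and 1.52 ± 0.385 differed by less than the spread between libraries. Srm to Sms was 1.01, 1.80, 2.73 and 2.52 in controls 1 to 4 and 0.934, 1.32, 2.32 and 2.05 in formate libraries 1 to 4. It too was lower in 4 of 4 pairs: it fell by 7.57% in codes 10 and 11 and fell by 27.0% in codes 13 and 14, again the extremes. Its means of 2.02 ± 0.779 and 1.66 ± 0.643 lay within the spread. With the counts of Sms-ps added to Sms, the log2 difference of this ratio was -0.28, against -0.27 without them. No test was made of either ratio, and neither was corrected for the GC trend. With that trend removed the blocked log2 changes of Srm and Sms were -0.12 and 0.07, against -0.16 and 0.12 with it. Those of Odc1 and Oaz1 were -0.04 and 0.12, against -0.06 and 0.09.

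**Figure D4:**
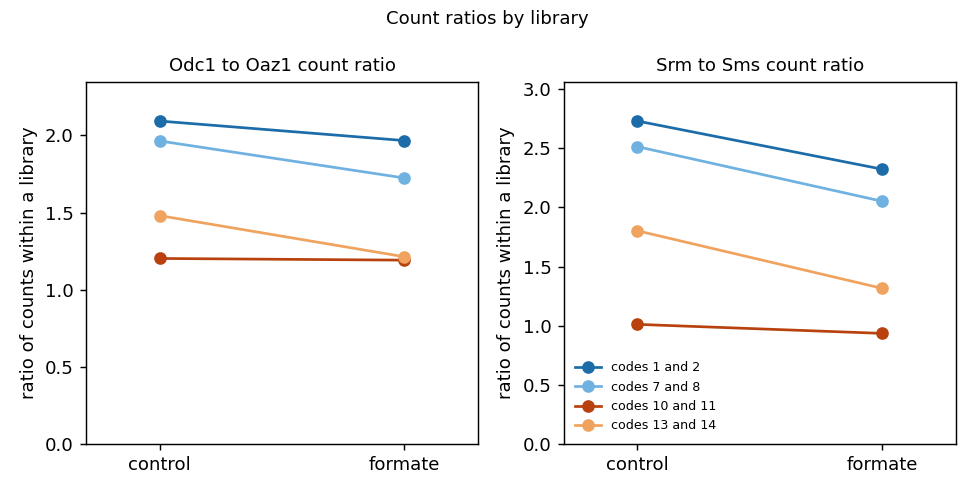
Ratio of counts within a library (vertical axes, starting at 0) for Odc1 to Oaz1 and for Srm to Sms in control and formate libraries; lines join neighbouring title codes. All 8 lines fall, and the distance between pairs is larger than the fall within them.

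The genes around the 10 were taken from 6 lists of 50 genes in all, of which 34 were tested. Without a block none was called, and 1 (2.94%) had an unadjusted p under 0.05, against 4.77% of all tested genes. With the block 2 (5.88%) fell and none rose, against 7.52% of all tested genes lower and 12.9% in either direction. The median blocked log2 change of the 34 was -0.06.

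Among 13 genes of arginine and ornithine supply, 8 were tested and 1 fell. Oat encodes ornithine aminotransferase, the mitochondrial enzyme that links ornithine to glutamate and proline. Oat read 131, 119, 122 and 121 CPM in controls 1 to 4 and 103, 98.5, 111 and 106 CPM in formate libraries 1 to 4. All formate libraries lay below all controls, as they did for 1.85% of all tested genes, and little of its variation lay between pairs (11.4%). The means were 123 ± 5.25 CPM and 105 ± 5.37 CPM. Its log2 change was -0.23 in both fits (edgeR adjusted p = 0.998 without a block, where the unadjusted value was 0.0130, and 0.00643 with it). Aldh18a1, which makes the glutamate semialdehyde from which ornithine and proline are formed, had opposite signs in the sets of libraries and was named after its values were seen.

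Of 9 polyamine regulators and catabolic genes, 6 were tested and 1 fell. Smox encodes spermine oxidase, which turns spermine back into spermidine. Smox read 71.0, 22.2, 10.4 and 10.4 CPM in controls 1 to 4 and 53.0, 21.2, 9.31 and 8.75 CPM in formate libraries 1 to 4. Codes 10 and 11 stood far above all others, and pairs took 98.6% of its variation. The blocked log2 change was -0.23 (SE 0.07, edgeR adjusted p = 0.0439). That call was lost when any 1 pair was left out, with the GC trend removed (edgeR adjusted p = 0.0910), with library size only (0.0808) and with upper quartile scaling (0.0715), and in DESeq2 with the block (adjusted p = 0.0664). Azin1, encoding the antizyme inhibitor that frees ornithine decarboxylase, was named after its values were seen. It read 160 ± 12.2 CPM in control and 176 ± 19.1 CPM in formate, higher in 4 of 4 pairs, with a blocked log2 change of 0.13 (edgeR adjusted p = 0.0604). It passed with library size only (0.17, edgeR adjusted p = 0.0237) and with upper quartile scaling (0.15, adjusted p = 0.0330), and became -0.03 with the GC trend removed (adjusted p = 0.712).

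In the blocked edgeR fit with TMM scaling no gene passed in the other 4 lists. In the hypusine pathway, through which spermidine modifies the translation factor eIF5A, 4 of 4 genes were tested with a median blocked log2 change of -0.12. Eif5a itself read 2495 ± 136 CPM in control and 2287 ± 181 CPM in formate (log2 -0.13, edgeR adjusted p = 0.0968, lower in 4 of 4 pairs), and passed in DESeq2 with the block (-0.13, adjusted p = 0.0161). Eif5a2, its paralog, stood at -0.15 (edgeR adjusted p = 0.257) and passed with the GC trend removed (-0.34, adjusted p = 0.0209); it was named after its values were seen. The 5 tested genes of the rest of the salvage pathway had a median of -0.13, with Got1, an aspartate aminotransferase, at -0.11 (edgeR adjusted p = 0.195). The 4 tested polyamine transport genes had a median of -0.04, and Slc3a2, a heavy chain shared by amino acid transporters, stood at 0.13 (edgeR adjusted p = 0.635). The 7 tested genes of S-adenosylmethionine supply and methionine uptake had a median of 0.05. Slc7a5, a transporter of large neutral amino acids, stood at 0.05 (edgeR adjusted p = 0.798). Mat2a and Mat2b, the subunits of the enzyme that makes S-adenosylmethionine, stood at 0.16 and 0.12 (edgeR adjusted p = 0.0630 and 0.0920), each higher in 4 of 4 pairs; both were named after their values were seen. With library size only both passed (edgeR adjusted p = 0.0449 and 0.0377, with 11.9% of tested genes called), and with upper quartile scaling Mat2a did (0.0484, 11.8% called). With the GC trend removed neither passed (0.12 and 0.095, edgeR adjusted p = 0.184 and 0.197). Neither passed in DESeq2 with the block (adjusted p = 0.0730 and 0.176).

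**Figure D5:**
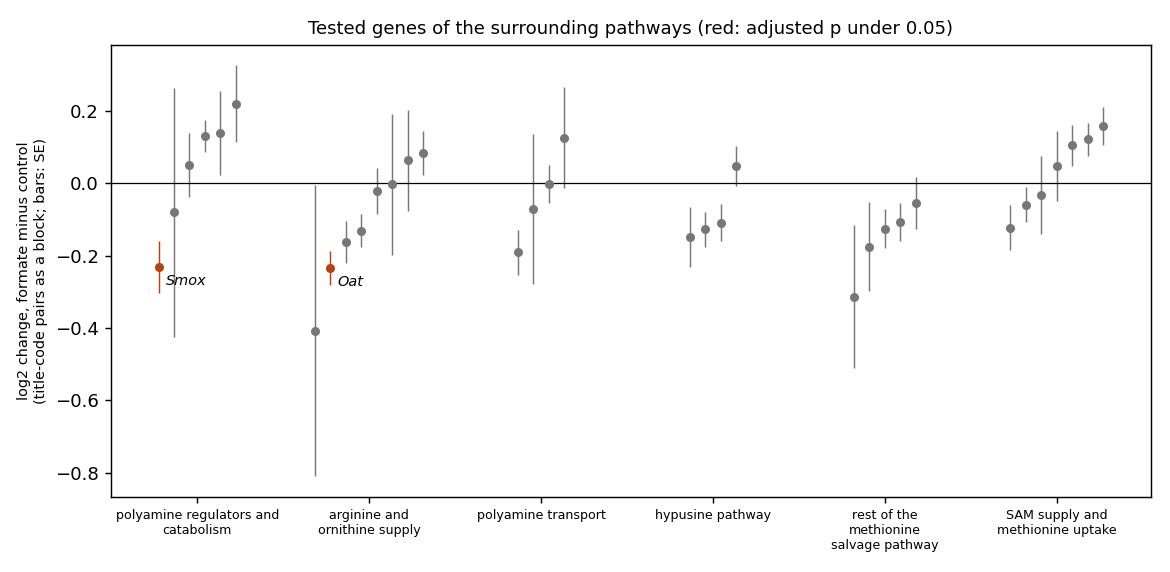
Blocked log2 change with formate (vertical axis, bars are SE) of the 34 tested genes in 6 lists around the 10 genes, sorted within each list; red marks an edgeR adjusted p under 0.05. Smox and Oat, both at -0.23, are the 2 red points.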

How the data were processed

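The authors deposited 1 table of estimated counts per gene of polyA RNA (stranded kit, paired 58 bp reads, per the labels' protocols). The submitters' processing notes name kallisto, Trimmomatic, MultiQC and the build GRCm38. The sources used here give neither the transcriptome release nor the strand setting. Non-zero values, 56.7% of them fractional, were rounded. Reads of near-identical genes are divided by the estimate. As a scale for low counts, 3 counts in the smallest library equal 0.102 CPM. Apip, the lowest of the 10 genes in counts, held 509 to 806 in a library.

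The planned test was edgeR 4.0.16 without a block, run in R 4.3.3 (TMM, filterByExpr, robust quasi-likelihood test, Benjamini-Hochberg over 13299 genes). SE is the log2 change divided by the root of F. The script was tested on simulated data. No libraries of a group agreed within sampling noise (smallest chi-square per degree of freedom 22.0). GENCODE M21 gave coordinates, lengths and sequences. DESeq2 1.42.0, other scalings, no filter, a GC correction, summed copies and left-out libraries or pairs were the alternatives; the summing of pseudogenes with their members, also in the Srm to Sms ratio, was added after seeing the data.

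Libraries were paired by neighbouring title codes; no label states this. Deviations from the group means correlated within pairs at 0.794 (codes 1 and 2), 0.511 (7 and 8), 0.789 (10 and 11) and 0.468 (13 and 14); a control and a formate library of the same set but different pairs reached 0.365 to 0.480. The bound of 0.1 set for pairing was passed, but it does not tell pairs from sets.

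The members and lists were chosen with earlier results of these data known. The named genes are the 10 members; in each list every gene called in either fit, or else the one with the highest level; Amd2 and pseudogenes named after a member; and the 3 genes most alike to Odc1 and to Mtap.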

Additional observations from a re-analysis of the deposited data

Results flagged for a closer look

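Aldh18a1 is listed because its change with formate differed between the sets of libraries (interaction of treatment with set, edgeR with the block, adjusted p = 0.0363, and 1.00 without the block). It was higher with formate in codes 1 and 2 and in codes 7 and 8, by 0.35 and 0.31 on the log2 scale, and lower in codes 10 and 11 and in codes 13 and 14, by -0.23 and -0.18. The levels were 205, 207, 172 and 181 CPM in controls 1 to 4 and 175, 183, 219 and 225 CPM in formate libraries 1 to 4. Over all libraries its blocked log2 change was 0.06 (edgeR adjusted p = 0.821).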

How the results depend on the processing

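The planned comparison called none of the 10 genes, and this held with every left-out library and scaling run without the block, and in DESeq2. The replicate block called 1 of them, as it did with the GC trend removed, with upper quartile scaling, without codes 7 and 8 and with copies and pseudogenes summed; it called 2 with library size only (Sat1 and Sms) and in DESeq2 and without codes 10 and 11 (Sat1 and Srm), and none without codes 1 and 2 or 13 and 14. Sat1 lay between 0.13 and 0.39 over all alternatives, positive throughout. Among all tested genes, 1 was called (0 to 1 without 1 library, 21 in DESeq2, 0 within codes 1 to 8 and 0 within 10 to 14). The replicate block called 1711 (12.9% of tested genes), and 1714 (12.9%) with copies and pseudogenes summed. It called 1401 (10.5%) with the GC trend removed, 1587 (11.9%) with library size only and 1568 (11.8%) with upper quartile scaling. DESeq2 with the block called 1574 (11.8%). Without codes 1 and 2, 7 and 8, 10 and 11 or 13 and 14 the block called 337 (2.55%), 722 (5.35%), 1371 (10.3%) and 502 (3.82%). Of the listed genes around the 10, the block called 2 (Oat and Smox), as it did with summed copies; the GC correction also called 2 (Oat and Eif5a2), as did DESeq2 (Oat and Eif5a). Library size only called 4 (Oat, Azin1, Mat2a and Mat2b), upper quartile 3 (Oat, Azin1 and Mat2a), and each left-out pair left 1 (Oat). These counts out of 34 tested genes, and those out of the 10, are to be read beside the shares of all tested genes above.

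Signs turned under some settings, and the cause was not tested. Most of these values lay near 0, but that of Smox, -0.31 in the fit without a block, did not. Amd1 was 0.0069 with upper quartile scaling and 0.020 with library size only; with the block it was 0.015 and 0.031 under these, 0.016 without codes 1 and 2, 0.019 without 7 and 8, 0.0026 with copies and pseudogenes summed, and 0.061 within codes 10 to 14. Azin1 was -0.030 with the block and the GC trend removed. Aldh18a1 was -0.025, -0.016 and -0.19, and Slc7a5 -0.027, -0.012 and -0.16, in the block without codes 1 and 2, without 7 and 8, and within codes 10 to 14; Slc3a2 was -0.12 within codes 10 to 14. Leaving out 1 library gave -0.14 to 0.11 for Amd1, -0.11 to 0.011 for Odc1, -0.19 to 0.077 for Mtap, -0.39 to -0.0035 for Srm, 0.00046 to 0.19 for Oaz1, 0.033 to 0.20 for Apip, -1.12 to 0.69 for Smox (the highest without control 1), -0.044 to 0.27 for Mat2a, -0.012 to 0.28 for Mat2b and -0.023 to 0.16 for Slc7a5. It gave -0.30 to -0.029 for the log2 difference of Odc1 to Oaz1 and -0.57 to -0.028 for Srm to Sms. With 4 libraries a group and pairs this uneven, the fit without a block had wide intervals. The widest among the 10 members was -0.91 to 0.55 for Srm, and that of Smox was -2.04 to 1.43.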
